A study of Mus musculus with 3 samples.

Results

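Receptors and a regulator of B cell positioning in the spleen were followed through single-cell libraries of mouse splenocytes: the sphingosine 1-phosphate (S1P) receptors S1pr1, S1pr2, S1pr3 and S1pr4, the oxysterol receptor Gpr183 (EBI2) and the transcription factor Klf2. They were taken by gene name and are 6 of 32285 measured genes. Levels are given by library, by hashtag population (the cells of 1 library that carry the same hashtag antibody) and by cell class, and B cells were further divided by transcripts of Fcer2a (CD23) and of Cd1d1 or Dtx1. The 3 libraries held T cell-depleted spleen cells of mice aged 12 to 14 weeks. The C57BL/6 control library pooled sham males with females of that strain. A pump period of 2 weeks from an age of 10 weeks is recorded for this library. The C57BL/6 Ang II library pooled C57BL/6 mice that had received angiotensin II by pump for 2 weeks from an age of 10 weeks with mice given angiotensin II and 2-HOBA, a scavenger of reactive lipid aldehydes. The B6.SLE123 library pooled mice of that strain, which carries the lupus susceptibility intervals Sle1, Sle2 and Sle3 on a C57BL/6 background, without or with 2-HOBA, begun at 7 weeks and continued for 6 weeks, and these mice were female per the study's methods. Each condition pooled 3 mice and each library held 6 hashtag populations. The sources do not say if hashtags correspond to single mice, and because the labels do not tie a hashtag to a condition the conditions within a library were not compared.

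S1P is abundant in blood and in the marginal sinus of the spleen and scarce inside follicles, and lymphocytes read this gradient with G protein-coupled receptors. S1PR1 draws B cells to S1P and is needed for exit from lymphoid tissue and for lodging in the marginal zone, where S1PR3 also marks B cells. S1PR2 signals through G proteins that restrain migration and holds germinal centre B cells in the middle of the follicle, while S1PR4 is a further receptor of leukocytes. GPR183 responds to a dihydroxycholesterol and takes activated B cells to the outer and interfollicular zones, and KLF2 is a transcription factor of quiescence and trafficking that restrains marginal zone differentiation in B cells and drives S1PR1 in T cells.

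After the study's limits on cells, 15700 control, 14023 Ang II and 16708 B6.SLE123 cells remained, with a median of 1759, 2724 and 1888 unique molecular identifiers (UMIs) per cell. The number of cell barcodes shared between 2 libraries was 304 to 349, or 1.94% to 2.38% of a library. Cells were put in classes by transcripts of marker genes, which left 2.31% to 3.93% of cells without a class or with a tie. B cells made up most of each library, with 13320, 11658 and 12577 cells outside the germinal centre class, called B cell-like below. T cell-like cells numbered 13, 290 and 9 after the depletion. Levels are CPM, the UMIs of a gene summed over the cells of a class and scaled to a common total, with exact Poisson 95% intervals where given, and log2 ratios carry the exact conditional 95% interval. Such intervals cover counting error only, and because there was 1 library per group, no test between groups was possible and no p-value is given. Sex differed between libraries: a transcript of Xist was found in 25.4% of the B cell-like cells of the control library, in 54.0% of those of the B6.SLE123 library and in 0 of 11658 of the Ang II library, which allows a share of up to 0.0257%.

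The members lie on different chromosomes of GRCm38 (mm10). By the GENCODE vM21 annotation, S1pr1 spans chr3:115710433-115715072 on the minus strand, S1pr2 chr9:20962361-20976781 (minus), S1pr3 chr13:51408639-51422797 (plus), S1pr4 chr10:81497747-81500132 (minus), Gpr183 chr14:121952551-121965195 (minus) and Klf2 chr8:72319033-72321656 (plus). The promoter windows of Klf2 and of the 2 receptors whose levels differed most, and in opposite directions, between the B cell groups described below are shown because these genes carried that difference. Each is a RefSeq window of 300 bases on GRCm38.p6, written 5′ to 3′ on the strand of the gene, chr8:72318812-72319111 for Klf2, chr13:51408368-51408667 for S1pr3 and chr10:81500088-81500387 for S1pr4. Capitals mark the letters TAAATTTA, the core of a MEF2-type element, and CACCC or its reverse complement GGGTG, the core of a KLF-type element.
Klf2: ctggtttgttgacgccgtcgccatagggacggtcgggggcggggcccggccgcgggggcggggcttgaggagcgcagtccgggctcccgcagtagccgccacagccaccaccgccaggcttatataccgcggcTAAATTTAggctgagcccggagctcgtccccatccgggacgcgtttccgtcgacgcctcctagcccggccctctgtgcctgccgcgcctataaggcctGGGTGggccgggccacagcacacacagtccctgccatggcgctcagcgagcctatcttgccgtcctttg
S1pr3: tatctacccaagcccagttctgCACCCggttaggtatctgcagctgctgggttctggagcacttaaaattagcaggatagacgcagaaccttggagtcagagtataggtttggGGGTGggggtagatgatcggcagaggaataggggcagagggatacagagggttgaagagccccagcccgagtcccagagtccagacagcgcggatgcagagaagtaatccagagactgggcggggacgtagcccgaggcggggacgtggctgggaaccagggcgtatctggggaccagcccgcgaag
S1pr4: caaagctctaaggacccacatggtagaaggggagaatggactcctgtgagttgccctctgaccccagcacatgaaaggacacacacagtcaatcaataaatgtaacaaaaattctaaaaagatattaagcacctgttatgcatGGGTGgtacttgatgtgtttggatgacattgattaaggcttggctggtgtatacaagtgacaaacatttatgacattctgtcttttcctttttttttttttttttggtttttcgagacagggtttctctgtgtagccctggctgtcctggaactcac
TAAATTTA, searched on both strands and identical to its own reverse complement, stood in the Klf2 window and in 0.545% of 32851 windows of this length. CACCC or GGGTG stood once in the windows of Klf2, S1pr4 and S1pr2 and at 2 places in that of S1pr3, was absent from the Gpr183 window, and stood in 57.5% of all windows. GTAAACA or TGTTTAC, the core of a FOXO-type element, stood in 3.65% of all windows and in none of the 5 windows of members held by the table. A match of letters is a description of the window only.

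Across 15 classes with at least 20 cells in every library, S1pr1 was a receptor of B cells outside the germinal centre. Its level was highest in B cells with Cd1d1 or Dtx1 and no Fcer2a, at 168 to 245 CPM over the 3 libraries, clear of the next class. B cells with both kinds of marker (147 to 157 CPM), with neither (110 to 149 CPM) and with Fcer2a only (100.3 to 129 CPM) followed, and neighbours in that order overlapped. NK cell-like cells came after them at 30.9 to 67.0 CPM, a range that did not overlap that of the lowest B cell group. No S1pr1 UMI was found in plasmacytoid (pDC-like) or conventional type 2 dendritic cell-like (cDC2-like) cells, which allowed 9.60 to 18.5 CPM at a limit of 3 counts. B cell transcripts were also read in other classes: Cd79a, a B cell gene, reached 2.63% to 5.77% of its B cell level in neutrophil-like cells, and S1pr1 reached 2.63% to 7.84% there. Free RNA can give such values, but their source was not tested. In NK cell-like cells Cd79a was at 3.64% to 7.55% of its B cell level, whereas S1pr1 was at 24.4% to 41.7%. Gpr183 was at 4.57% to 7.41% in the same NK cell-like cells, from 4 to 13 UMIs, and close to the Cd79a share. The 290 T cell-like cells of the Ang II library, of which 278 were in population C0303, held S1pr1 at 189 CPM (166 to 214) and Klf2 at 637 CPM (594 to 682).

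S1pr2 and S1pr3 each had 1 class clear of the rest. S1pr2 was at 156.5 to 167 CPM in germinal centre B cell-like cells and by its median next highest in NK cell-like cells, at 7.85 to 11.8 CPM. S1pr3 was at 43.9 to 62.6 CPM in the Cd1d1 or Dtx1 group of B cells and at most 22.96 CPM in any other of the 15 classes. S1pr4 was more evenly spread, with NK cell-like cells at 91.8 to 114 CPM, Fcer2a B cells at 74.1 to 80.1 CPM and neutrophil-like cells at 32.3 to 62.2 CPM. The highest median for S1pr4 and for Gpr183 was in basophil or mast cell-like cells, of which there were only 21 to 34 per library, and in both cases their range overlapped the next class. Gpr183 there was at 411 CPM in control, 662 in Ang II and 144 in B6.SLE123. By its median it came next in cDC2-like cells, a class known to need GPR183 to reach the bridging channels of the spleen, at 166, 154 and 75.3 CPM. That range overlapped the 114 to 172 CPM of B cells with Fcer2a only. As a share of its B cell level, Gpr183 in NK cell-like and neutrophil-like cells was close to that of Cd79a. In migratory dendritic cell-like cells, 19 to 39 per library, it was at 252 to 557 CPM. Klf2 was highest in NK cell-like cells at 1124 to 1198 CPM and in nonclassical monocyte-like cells at 832 to 1137 CPM, and by its median over libraries lowest in plasma cell-like cells at 0 to 79.0 CPM, a range that overlapped the 28.9 to 90.3 CPM of germinal centre B cell-like cells. S1pr5, the S1P receptor of NK cells and patrolling monocytes and no member of the list, was at 266 to 325 CPM and 169 to 227 CPM in those 2 classes and at most 2.14 CPM in B cell-like cells.

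**Figure D1:**
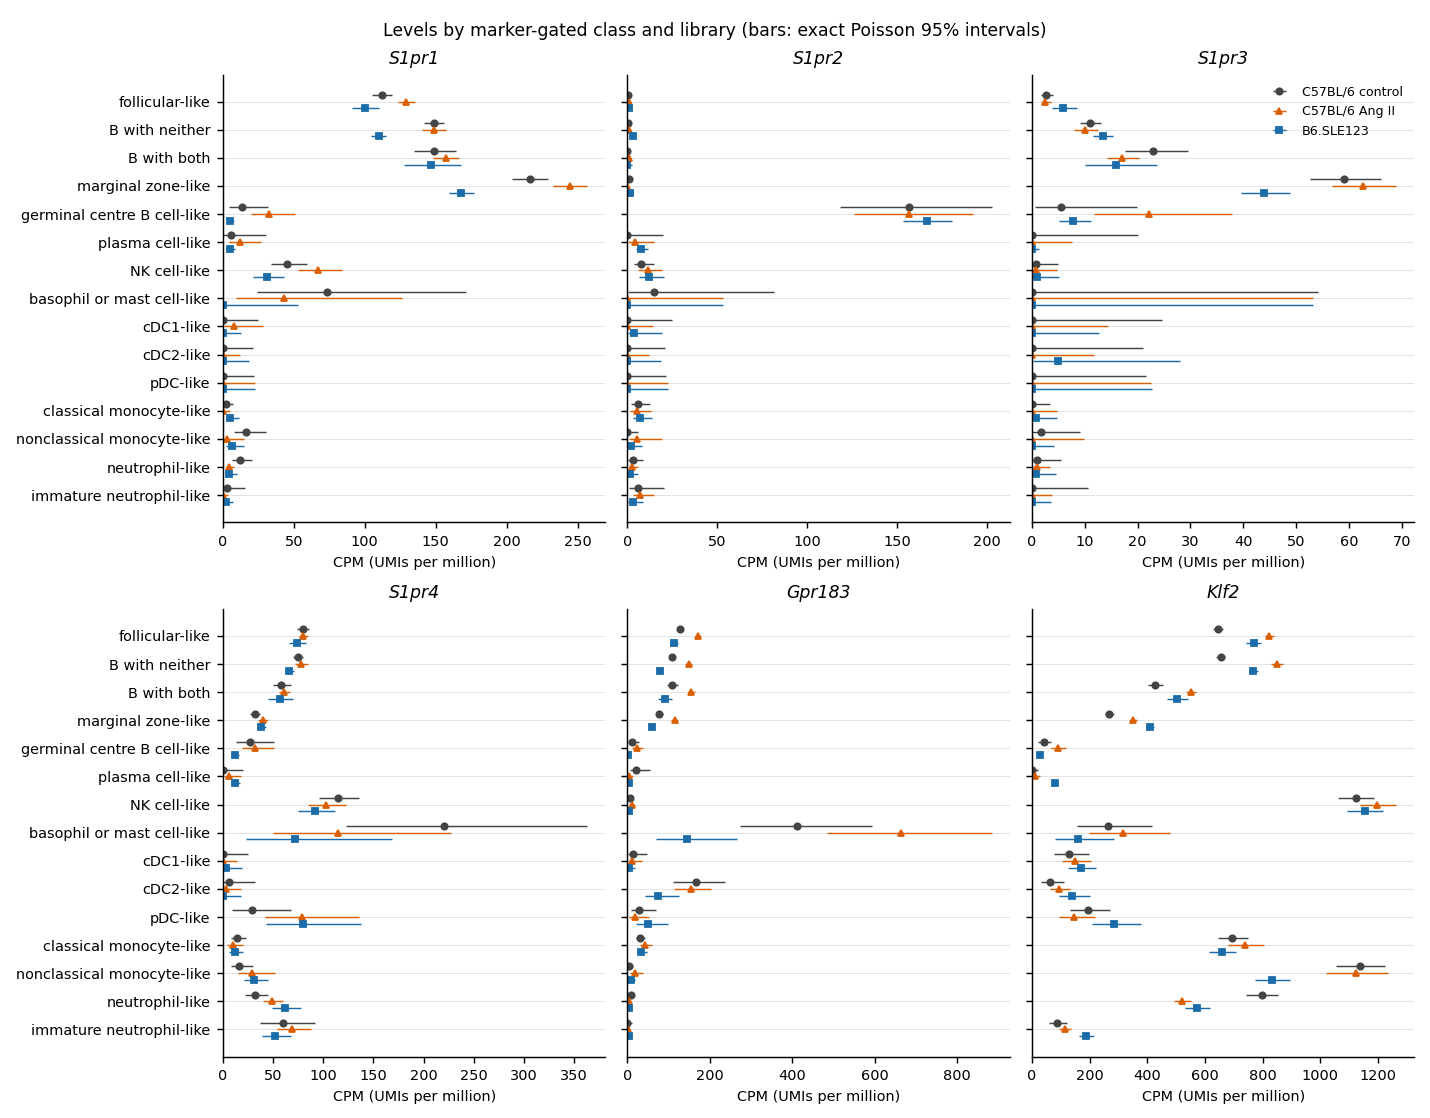
Level of each of the 6 genes (x axis, CPM) in 15 cell classes (y axis) of the C57BL/6 control (circles), C57BL/6 Ang II (triangles) and B6.SLE123 (squares) libraries, with exact Poisson 95% intervals as bars. S1pr1 and S1pr3 peak in the marginal zone-like group, S1pr2 in germinal centre B cell-like cells at 156.5 to 167 CPM, and Klf2 in NK cell-like cells at 1124 to 1198 CPM.

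B cells without Fcer2a but with Cd1d1 or Dtx1 were compared with B cells with Fcer2a and neither of the others, inside each library. The groups are called marginal zone-like and follicular-like because markers that did not define them followed: of 8 marginal zone genes, 7 (Cr2, Cd9, Plac8, Mzb1, Asb2, Tm6sf1 and Cd36) were higher in the first group in 6 of 6 hashtag populations of every library. Myof was so in control (88.1 against 8.69 CPM) and Ang II, and was almost unread in B6.SLE123 (0.864 CPM against 0). Among follicular genes, Ighd, Ccr7 and Cd55 were lower in 6 of 6 populations of each library, Vpreb3 in all but 1 population of B6.SLE123, and Cxcr5 differed by at most 0.08 in log2 ratio. The marginal zone-like group held 1870, 1700 and 2703 cells in control, Ang II and B6.SLE123, and the follicular-like group 4525, 4852 and 2163. As a share of B cell-like cells the follicular-like group was 34.0%, 41.6% and 17.2%. Among cells thinned to 1000 UMIs it was 24.3%, 28.6% and 11.9%. Thinning left out 989, 734 and 1335 B cell-like cells with fewer UMIs.

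S1pr1 and S1pr3 were higher, and S1pr4, Gpr183 and Klf2 lower, in marginal zone-like than in follicular-like cells in every hashtag population of every library. The share of all genes with a single direction in every population, or with ranges apart, was not counted for these groups. S1pr3 showed the largest ratio. In control its 6 populations were at 36.7 to 67.5 CPM (median 60.7) in marginal zone-like cells and at 1.62 to 3.80 CPM (median 2.95) in follicular-like cells. In Ang II they were at 41.0 to 80.7 CPM (median 65.2) against 0.525 to 3.99 CPM (median 2.46). In B6.SLE123 they were at 19.2 to 52.0 CPM (median 46.9) against 3.36 to 7.80 CPM (median 5.97). None of these ranges overlapped, and the pooled log2 ratios were 4.45 (3.85 to 5.11), 4.60 (4.11 to 5.14) and 2.90 (2.33 to 3.54). The smaller B6.SLE123 ratio came with a higher follicular-like and a lower marginal zone-like level than in the other 2 libraries, and this difference between libraries has no replicate check. Among cells thinned to 1000 UMIs, 4.78%, 3.83% and 4.54% of marginal zone-like cells held an S1pr3 UMI in control, Ang II and B6.SLE123, against 0.165%, 0.259% and 0.305% of follicular-like cells and at most 0.174% of neutrophil-like cells. Thinning left out 55 to 105 marginal zone-like and 195 to 291 follicular-like cells per library.

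For S1pr1, the receptor that keeps B cells in the marginal zone, the marginal zone-like populations were at 129 to 265 CPM in control (median 219), 197 to 295 CPM in Ang II (median 237) and 114 to 207 CPM in B6.SLE123 (median 171). The follicular-like populations were at 93.7 to 144 CPM (median 105), 111 to 151 CPM (median 129) and 65.5 to 124 CPM (median 107). The ranges were apart in Ang II and met in the other 2 libraries, where the same population was nevertheless always higher in its marginal zone-like cells. Pooled log2 ratios were 0.95 (0.82 to 1.07), 0.92 (0.83 to 1.02) and 0.74 (0.59 to 0.90), each short of a 2-fold difference.

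Klf2 went the other way. Its marginal zone-like populations were at 181 to 456 CPM in control (median 262), 296 to 436 CPM in Ang II (median 337) and 290 to 582 CPM in B6.SLE123 (median 386). Follicular-like populations were at 578 to 676 CPM (median 657), 651 to 935 CPM (median 813) and 568 to 922 CPM (median 782.5). The 2 groups were apart in control and Ang II and touched in B6.SLE123, with log2 ratios of -1.27 (-1.35 to -1.18), -1.24 (-1.30 to -1.17) and -0.91 (-0.98 to -0.84). S1pr4 populations were at 16.9 to 48.0, 33.2 to 49.4 and 31.1 to 45.8 CPM in the marginal zone-like group and at 63.5 to 85.2, 74.2 to 86.2 and 50.4 to 92.3 CPM in the follicular-like group. The log2 ratio of S1pr4 was -1.33 (-1.58 to -1.08) in control and -0.96 (-1.19 to -0.73) in B6.SLE123, and in Ang II it stood at a 2-fold difference (-1.20 to -0.81). Gpr183, which in B cells favours the outer follicle, had ratios of -0.72 (-0.89 to -0.56), -0.58 (-0.70 to -0.46) and -0.94 (-1.12 to -0.75), from 77.5, 115 and 59.3 CPM against 128, 172 and 114 CPM. Neither S1pr4 nor Gpr183 had overlapping hashtag ranges in any library. S1pr2 was nearly absent from both groups, with 4 and 4 UMIs in control, 0 and 15 in Ang II and 14 and 5 in B6.SLE123.

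Of the members, 5 had the 50 UMIs over both groups needed to be counted, and 1 of them (S1pr3) was at least 2-fold higher in marginal zone-like cells in each library, where 2.48%, 2.66% and 3.12% of all genes counted in control, Ang II and B6.SLE123 were. Of the same 5, 2 (S1pr4 and Klf2) were at least 2-fold lower in control and in Ang II and 0 in B6.SLE123, against 2.21%, 1.98% and 1.1% of all genes. The B6.SLE123 library passed this limit for both genes without its population C0303 (S1pr4 -1.11, Klf2 -1.06), and the Ang II ratio of S1pr4 fell short of it without C0304 (-0.92). With the study's limits read as UMIs, the ratios in Ang II were nearer to 0, at -0.28 for S1pr4, -0.29 for Gpr183 and -0.50 for Klf2, and Klf2 in control was at -0.95. The median log2 ratio of the 5 members was -0.72, -0.58 and -0.91, and that of all genes counted -0.11, -0.10 and -0.07. The groups also differed in depth, with medians of 2452 and 1756 UMIs per cell in control, 3552 and 2676 in Ang II and 2567 and 1763 in B6.SLE123. They differed too in 13 immediate early and heat shock genes that tissue handling can induce. These summed to 742 CPM in marginal zone-like and 1312 CPM in follicular-like cells of control. The sums were 1046 and 1540 CPM in Ang II and 1215 and 1432 CPM in B6.SLE123, and their part was not tested. B cells with neither or both kinds of marker lay between the 2 groups in every library for the 4 receptors S1pr1, S1pr3, S1pr4 and Gpr183, whereas Klf2 in cells with neither kind (654, 849 and 768 CPM) was close to its follicular-like level.

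**Figure D2:**
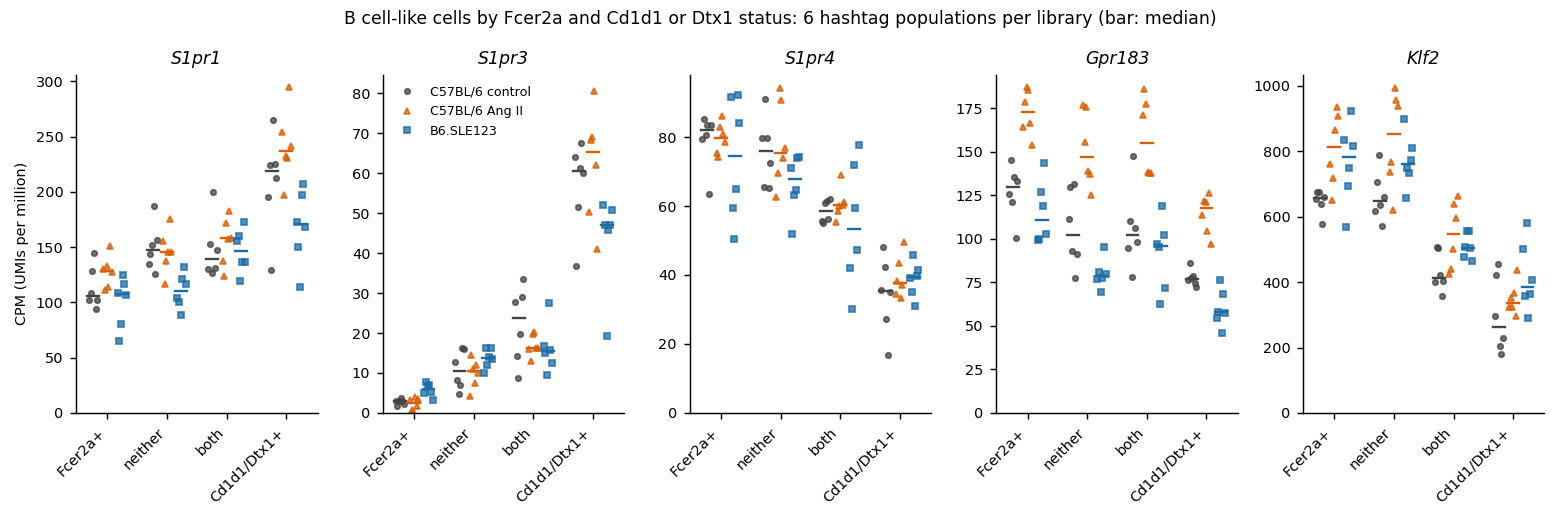
CPM (y axis) of S1pr1, S1pr3, S1pr4, Gpr183 and Klf2 in B cell-like cells by Fcer2a and Cd1d1 or Dtx1 status (x axis); each point is 1 of 6 hashtag populations of a library and the bar is their median. S1pr3 rises from medians of 2.46 to 5.97 CPM in follicular-like cells to 46.9 to 65.2 CPM in marginal zone-like cells, and the Ang II points for Gpr183 stand above the control points in both groups.

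S1pr2 was high in germinal centre B cell-like cells, while S1pr1, S1pr4, Gpr183 and Klf2 were lower there than in B cell-like cells. They were B cells with at least 3 of 9 germinal centre markers, and numbered 63 in control, 93 in Ang II and 618 in B6.SLE123, which was 0.471%, 0.791% and 4.68% of all B lineage-like cells. Over hashtag populations these shares ran from 0.0447% to 1.26% in control, from 0.276% to 1.43% in Ang II and from 2.07% to 7.33% in B6.SLE123, so that the B6.SLE123 populations were all above the others. S1pr2 in these cells was at 156.5 CPM (119 to 203) in control, 157 CPM (126 to 192) in Ang II and 167 CPM (154 to 181) in B6.SLE123. Its log2 ratio to control was 0.00 (-0.49 to 0.51) in Ang II and 0.09 (-0.30 to 0.51) in B6.SLE123. Of all S1pr2 UMIs in B lineage-like cells, 82.6%, 76.0% and 90.2% were in the germinal centre class. Over the 3 libraries these cells held S1pr1 at 4.999 to 32.4 CPM, S1pr4 at 11.9 to 32.4 CPM, Gpr183 at 2.50 to 22.1 CPM and Klf2 at 28.9 to 90.3 CPM. S1pr3 was at 5.49 to 22.1 CPM, and in Ang II its 22.1 CPM lay above the 18.4 CPM of B cell-like cells.

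The egress and outer-follicle receptors were low in the same cells. In B6.SLE123, which had the most of them, S1pr1 was at 4.999 CPM, Gpr183 at 2.50 CPM, S1pr4 at 11.9 CPM and Klf2 at 28.9 CPM. In the B cell-like cells of that library these genes were at 127, 79.5, 59.0 and 653 CPM. B lineage-like cells of the B6.SLE123 library with 0, 1, 2, 3 and 4 or more markers had S1pr2 at 0.862, 3.45, 50.6, 134 and 170 CPM and Klf2 at 667, 609, 360, 69.6 and 24.2 CPM. Gpr183 over the same steps was at 79.5, 87.4, 37.9, 8.03 and 1.86 CPM, so it was no lower with 1 marker than with none. Control and Ang II had only 6 and 17 cells at 3 markers, and their values there have wide intervals. At 4 or more markers S1pr2 was at 163 and 173 CPM and Klf2 at 35.0 and 47.8 CPM.

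**Figure D3:**
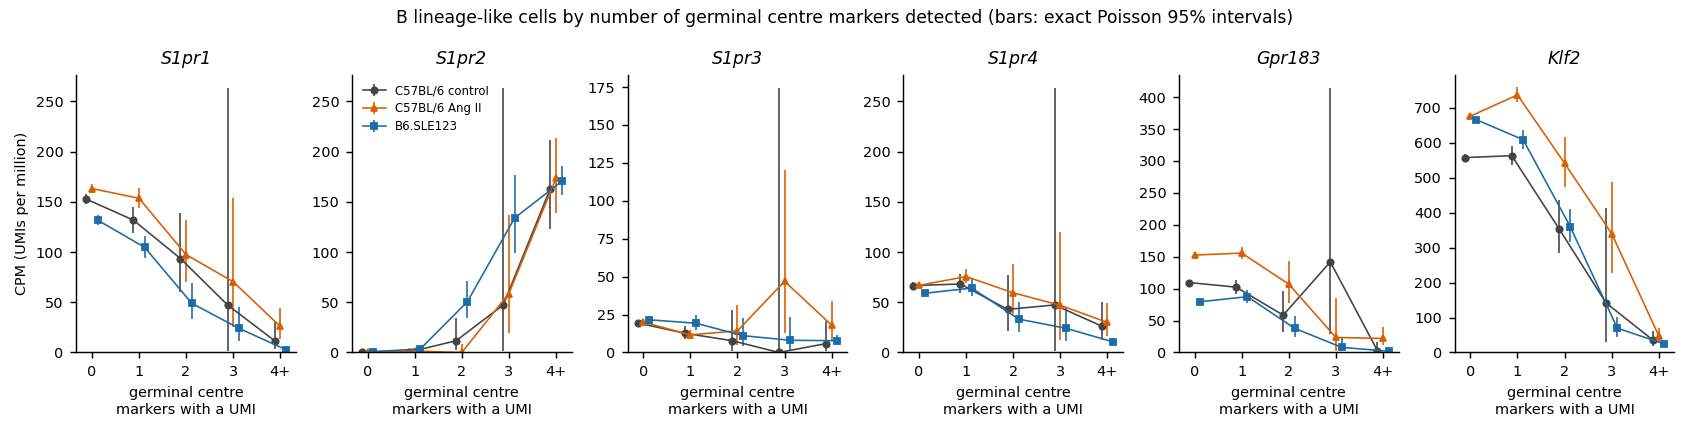
CPM (y axis) of the 6 genes in B lineage-like cells by the number of 9 germinal centre markers with a UMI (x axis), 1 line per library, with exact Poisson 95% intervals. S1pr2 climbs to 163 to 173 CPM at 4 or more markers while Klf2 drops to 24.2 to 47.8 CPM; the control and Ang II points at 3 markers rest on 6 and 17 cells.

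The B6.SLE123 library was then set against C57BL/6 control within B cell-like cells. The largest ratio was that of S1pr2. It was read at 2.28 CPM in B6.SLE123 and 0.434 CPM in control, from 65 and 12 UMIs, which gave a log2 ratio of 2.40 (1.49 to 3.42). Its hashtag populations were at 0.904 to 3.73 CPM (median 2.06) in B6.SLE123 and at 0 to 0.772 CPM (median 0.364) in control, and did not overlap. Of these 65 UMIs, 32 were in cells with 2 germinal centre markers, 12 in cells with 1 and 21 in cells with none. With germinal centre B cell-like cells included, S1pr2 was at 20.7 CPM in B6.SLE123 and 2.46 CPM in control (3.07, 2.72 to 3.45), and again every B6.SLE123 population was above every control population. This difference in the whole B lineage stood beside near-equal levels inside the germinal centre class and a larger share of that class.

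Gpr183 was lower in B6.SLE123. Its populations in B cell-like cells were at 85.4 to 127 CPM (median 105) in control and 75.3 to 95.4 CPM in B6.SLE123, overlapping only through 1 B6.SLE123 population, C0305. The log2 ratio was -0.45 (-0.53 to -0.37), and -0.49 without that population. It was -0.17 (-0.33 to -0.02) in follicular-like and -0.39 (-0.58 to -0.19) in marginal zone-like cells. With germinal centre B cell-like cells included it was -0.60 (-0.67 to -0.52) and the populations no longer overlapped, at 64.8 to 81.4 CPM against 85.4 to 123.5 CPM. S1pr1 was likewise a little lower, at 127 CPM beside 149.9 CPM in control (-0.24, -0.31 to -0.18). Its populations overlapped, at 95.1 to 154 CPM (median 128) against 133 to 192 CPM (median 144), and the ratio was -0.16 without the highest control population, C0304.

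Klf2 in B cell-like cells was at 653 CPM in B6.SLE123 and 556.5 in control (0.23, 0.20 to 0.26), with populations at 544 to 767 CPM against 449 to 680 CPM. The ratio was larger in marginal zone-like cells, at 0.61 (0.52 to 0.70), and the populations overlapped there also, at 290 to 582 against 181 to 456 CPM. Including germinal centre B cell-like cells brought the ratio for all B cells to 0.08 (0.05 to 0.11). S1pr4 was at 59.0 against 66.5 CPM (-0.17, -0.27 to -0.08). S1pr3 was at 21.0 against 18.6 CPM in B cell-like cells (0.18, 0.00 to 0.35), yet lower within marginal zone-like cells (-0.43, -0.65 to -0.20) and higher within follicular-like cells (1.12, 0.26 to 1.98, from 26 and 24 UMIs). Without B6.SLE123 population C0303, left out after its value was seen, the marginal zone-like level was 48.9 CPM beside 59.1 CPM in control (-0.27, -0.50 to -0.04). Marginal zone-like cells were 21.5% of B cell-like cells in B6.SLE123 and 14.0% in control. Marker genes of that group also differed from control. Cr2 was at 376.5 CPM in B6.SLE123 and 862.4 CPM in control, and Asb2 at 14.7 and 34.0 CPM. Myof, Tm6sf1 and Cd36 were lower too, whereas Cd9 (111.7 and 88.3 CPM), Plac8 and Mzb1 were higher. Plasma cell markers in that group summed to 449 CPM in B6.SLE123 and 146 CPM in control. What these differences contributed to the ratios within marginal zone-like cells was not tested. When only control cells with a Xist UMI were used, S1pr3 and S1pr4 turned direction, to -0.59 and 0.055, and S1pr1 was at -0.49, S1pr2 at 4.29, Gpr183 at -0.27 and Klf2 at 0.58. The S1pr2 value rests on fewer than the 12 S1pr2 UMIs of all control B cell-like cells and is imprecise. The control cells with a Xist UMI also held more marginal zone-like cells (22.8%) than the control cells without Xist (11.1%). The same held in B6.SLE123, at 27.1% with Xist and 14.9% without. Cells with a Xist UMI also had more UMIs, with medians of 2062 against 1689 in control and 2202 against 1578 in B6.SLE123. Only control cells were chosen by Xist, so the ratios to them set a selected part of that library against unselected cells.

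Of the 6 members, 1 (S1pr2) was at least 2-fold higher in B6.SLE123, where 3.94% of 11290 genes counted were, and 0 were at least 2-fold lower, where 1.77% were. A single member (S1pr2) had all 6 populations above all 6 of control, against 6.29% of genes, and 0 had all below, against 10.1%. The members' median log2 ratio was 0.00 and that of all genes counted -0.06. Shares of genes with all populations above or below control were counted in B cell-like cells only, without the germinal centre class.

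In the Ang II library Gpr183 had the largest log2 ratio of the 5 members with at least 50 UMIs. Its B cell-like populations were at 134.5 to 168 CPM (median 155), all above the control range of 85.4 to 127 CPM, with a log2 ratio of 0.49 (0.43 to 0.56). The ratio was 0.43 (0.32 to 0.53) in follicular-like, 0.47 (0.35 to 0.59) in cells with neither marker, 0.51 (0.32 to 0.70) in cells with both and 0.57 (0.39 to 0.74) in marginal zone-like cells. The populations were apart in the follicular-like and marginal zone-like groups, at 154 to 187 against 100.5 to 145 CPM and 97.0 to 126 against 72.5 to 86.1 CPM. The share of all genes whose populations were apart from control was not counted within these groups. Klf2 was at 686 against 556.5 CPM (0.30, 0.27 to 0.33) and S1pr1 at 161 against 149.9 CPM (0.10, 0.04 to 0.16), both with overlapping populations. The S1pr1 ratio was 0.18 without control population C0304, 0.035 without Ang II population C0305, and -0.15 against control cells with a Xist UMI, where Klf2 was at 0.65 and S1pr3 at -0.78. S1pr3 and S1pr4 had log2 ratios of -0.02 (-0.18 to 0.15) and 0.04 (-0.05 to 0.12), which came to -0.99 and 0.14 when the study's limits on cells were read as UMIs. S1pr2 was at 0.805 CPM in Ang II and 0.434 CPM in control, from 29 and 12 UMIs (0.89, -0.12 to 2.00), with overlapping populations.

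For Ang II 5 members could be counted, and 0 were 2-fold higher or lower, where 1.15% and 0.52% of 11344 genes were. Gpr183 alone of the 5 had all populations above control, against 8.04% of genes, and 0 had all below, against 4.95%. The median log2 ratio was 0.10 for the members and 0.06 for all genes counted. Other measures moved with both libraries. The 13 genes of the handling response, immediate early and heat shock genes that tissue handling can induce, summed to 966 to 1596 CPM over control populations, 1185 to 1706 over Ang II and 1247 to 1491 over B6.SLE123, with 0 of 13 at zero in each library. The 13 neutrophil markers summed to 255.5, 679 and 894 CPM in the B cell-like cells of control, Ang II and B6.SLE123. The 5 T cell markers summed to 1.23, 6.14 and 2.21 CPM, with 1, 0 and 1 of them at zero. Their part in the differences above was not tested, and strain, sex, treatment and library cannot be told apart.

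**Figure D4:**
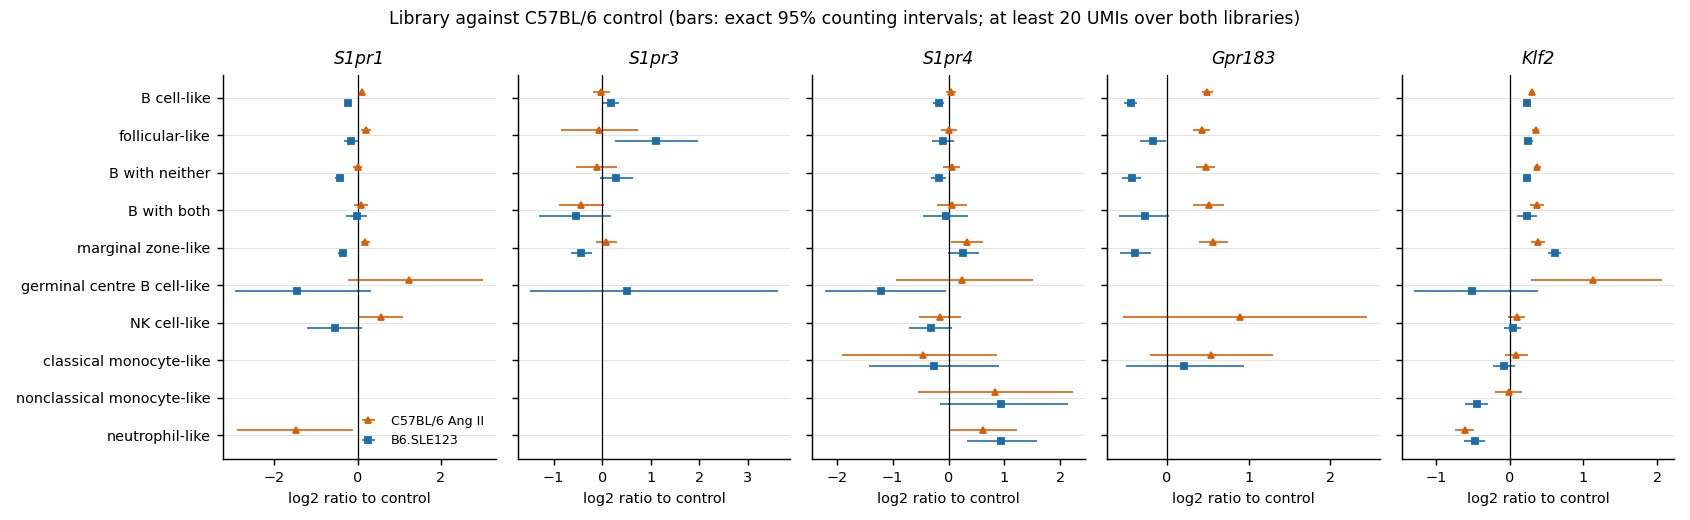
Log2 ratio (x axis) of Ang II (triangles) and B6.SLE123 (squares) to C57BL/6 control for 5 of the genes in 10 cell groups (y axis), with exact 95% counting intervals as bars; values with under 20 UMIs over both libraries are left out. Gpr183 lies near 0.49 in Ang II and -0.45 in B6.SLE123 B cell-like cells, and the same sides hold in each of the 4 B cell groups.

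Outside B cells few ratios were clear of counting error. Klf2 was lower in neutrophil-like cells of both libraries, at 798 CPM in control, 522 in Ang II (-0.61, -0.74 to -0.48) and 573 in B6.SLE123 (-0.48, -0.63 to -0.33), with overlapping populations. In nonclassical monocyte-like cells it was at 832 CPM in B6.SLE123 against 1137 in control (-0.45, -0.60 to -0.30), and here all 6 populations were below those of control. The share of all genes with all populations below control was not counted in that class. In plasma cell-like cells Klf2 had 227 UMIs (79.0 CPM, 288 cells) in B6.SLE123 and 0 (21 cells) in control, at least 4.84-fold higher against a limit of 3 counts in the control library. In NK cell-like cells it was near equal, at 1124, 1198 and 1154 CPM in control, Ang II and B6.SLE123. Gpr183 in cDC2-like cells was at 75.3 CPM in B6.SLE123 and 166 in control, from 15 and 29 UMIs (-1.14, -2.14 to -0.19), with overlapping populations.

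The rest of the pathway was read in B cell-like cells through lists of genes around the members. Of 13 counted genes that make, break, carry or sense S1P, 2 were at least 2-fold higher in B6.SLE123 and 0 lower, where 3.94% and 1.77% of all genes counted were: S1pr5 (2.14 against 0.796 CPM) and Plpp1, a lipid phosphate phosphatase (1.79 against 0.253 CPM). The populations of both genes overlapped those of control, and 36 of the 61 S1pr5 UMIs in B6.SLE123 were in C0303, at 7.004 CPM. Without that population, left out after its value was seen, S1pr5 was at 1.07 CPM and its log2 ratio was 0.43 (-0.46 to 1.33), short of 2-fold. Of 8 oxysterol genes 1 was lower, the sterol hydroxylase Cyp27a1, at 2.32 against 7.38 CPM with all populations below control. Of 18 genes of G protein coupling and desensitisation 1 was higher, Rgs1, a GTPase-activating protein that damps chemoattractant signals, at 6.71 against 1.34 CPM with overlapping populations. Of 23 genes of retention, homing and the KLF2 network 2 were higher, both with no overlap: Itgb1, the beta 1 integrin that tethers marginal zone B cells, at 66.6 against 30.5 CPM, and the lectin Lgals1 at 71.7 against 33.3 CPM. Cd69, which pulls S1PR1 from the cell surface, fell short of 2-fold at 169 against 98.0 CPM (0.79, 0.72 to 0.86) and was named after its value was seen. The list medians were -0.20, -0.01, -0.12 and -0.15, beside -0.06 for all genes. In these 4 lists 1, 3, 5 and 7 genes had all 6 populations below all 6 of control, and 0, 0, 1 and 2 had all above. Of all genes counted, 10.1% had all below and 6.29% all above. Of the 13 handling genes 4 were higher, Fos, Fosb, Jun and Atf3, with a median of 0.66. In Ang II none of 11, 8, 18 and 23 counted genes of the first 4 lists passed 2-fold in either direction (1.15% of all genes counted were higher and 0.52% lower), with medians of 0.07, 0.04, 0.16 and 0.17, and of 12 handling genes Hspa1a and Hspa1b were higher (median 0.47). In the first 4 lists 0, 1, 6 and 2 genes had all Ang II populations above control, and 0 had all below. Of all genes counted, 8.04% had all above and 4.95% all below.

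KLF2 activates S1pr1 in T cells, and both transcripts were read in the same cells, each thinned to 1000 UMIs. In B cell-like cells S1pr1 was at 141 CPM with and 147.5 CPM without a Klf2 UMI in control, 156 and 163 CPM in Ang II and 124 and 129 CPM in B6.SLE123. All 3 log2 ratios were -0.06 or -0.07, and their intervals held 0. Inside the B cell groups the direction differed. In follicular-like cells S1pr1 was higher with a Klf2 UMI in 4, 5 and 6 of 6 hashtag populations (libraries in the order given), with log2 ratios of 0.11 (-0.17 to 0.38), 0.27 (0.04 to 0.50) and 0.60 (0.19 to 1.01). In marginal zone-like cells it was higher with a Klf2 UMI in 3, 0 and 0 of 6, with ratios of -0.20 (-0.59 to 0.17), -0.83 (-1.25 to -0.44) and -0.50 (-0.83 to -0.18).

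S1pr4 was higher in cells with a Klf2 UMI. Its level in B cell-like cells was 96.8 CPM with and 55.9 CPM without a Klf2 UMI in control, 93.2 and 60.6 CPM in Ang II and 87.3 and 44.1 CPM in B6.SLE123, higher in 6 of 6 populations of each library. The log2 ratios were 0.79 (0.60 to 0.98), 0.62 (0.42 to 0.82) and 0.99 (0.76 to 1.21). The same direction was seen within marginal zone-like cells, at 1.53 (0.69 to 2.35), 1.42 (0.73 to 2.12) and 1.42 (0.81 to 2.04), with 4, 6 and 6 of 6 populations. In follicular-like cells the ratios were smaller, at 0.60 (0.29 to 0.91), 0.30 (0.01 to 0.60) and 0.80 (0.31 to 1.29), with 5, 5 and 6 of 6. S1pr3 was lower with a Klf2 UMI, with log2 ratios of -2.74 (-3.64 to -1.94), -3.99 (-5.46 to -2.82) and -1.69 (-2.23 to -1.18) in B cell-like cells. These rest on 14, 6 and 39 S1pr3 UMIs in cells with Klf2. Within marginal zone-like cells the direction was the same, from 3, 1 and 14 such UMIs. That group is called in part by the absence of an Fcer2a UMI, and Klf2 itself differed between the B cell groups. What cells of other groups within it contributed to the ratios with and without Klf2 was not tested. For Gpr183 the ratios in B cell-like cells were 0.04, 0.05 and 0.05, each with an interval that held 0.

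**Figure D5:**
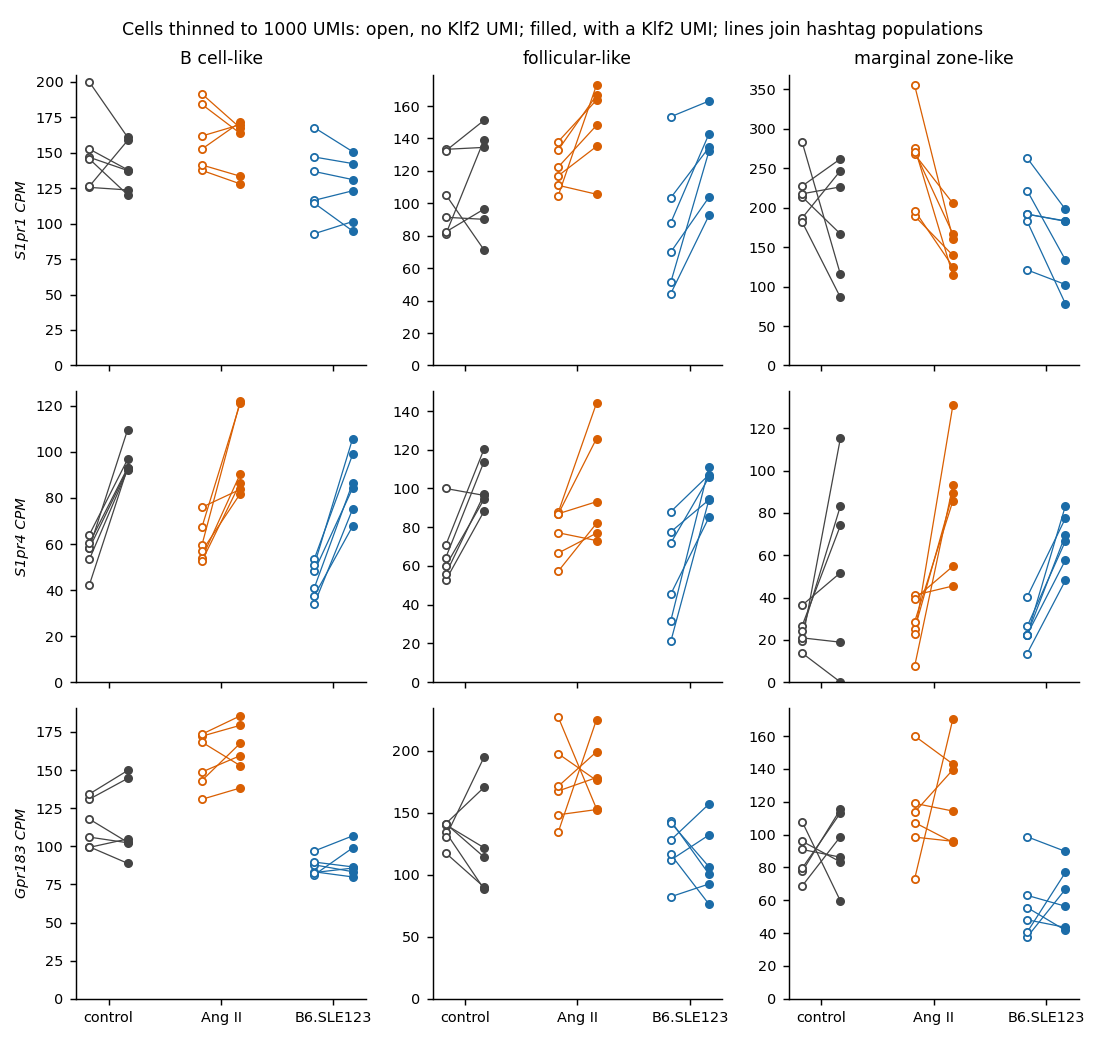
CPM (y axis) of S1pr1, S1pr4 and Gpr183 in cells thinned to 1000 UMIs without (open) and with (filled) a Klf2 UMI, by library (x axis) and B cell group; a line joins the 2 values of 1 hashtag population. S1pr4 lines climb in all 6 populations of each library in B cell-like cells, and S1pr1 lines fall in every marginal zone-like population of the Ang II and B6.SLE123 libraries.

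Genes with the most similar profile were sought over 45 points, the 15 classes in 3 libraries, among 10754 candidates by Pearson correlation of log2(CPM + 1). The points share libraries and classes, so the values are descriptions. Klf2 was closest to Klf3 (0.92), then Stk10, Fmnl1, Morc3 and Ankrd44. S1pr1 was closest to Gdf11 (0.89), Gimap8, Gimap3, Gimap7 and Scd1, and S1pr3 to Gm4610 (0.92), Ptpn14, Ppl, Hes5 and 4930426D05Rik. S1pr4 was closest to Stk26 (0.85), Ripor2, Rac2, Atp2a3 and Ppp3ca, Gpr183 to Uba7 (0.80), Nop53, Ube2w, Tmem123 and Lrba, and S1pr2 to H1fx (0.77), Rflna, Parm1, Mbd2 and Rassf6. Among the members themselves S1pr1 and S1pr3 were most alike (0.73), and S1pr2 and Gpr183 least alike (-0.43). By Spearman correlation the 5 genes named for S1pr2 were at only 0.43, 0.28, 0.45, 0.60 and 0.26. None of the genes named for S1pr2 or S1pr3 was among the 5 highest by that measure.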

How the data were processed

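T cell-depleted spleen cells were sequenced as 3 10x 5′ libraries with hashtag antibodies. The deposited values are raw UMI counts, which the authors obtained by Cell Ranger 6.0.0 (stated in the file headers), with mm10 named in their processing notes. Cells with over 200 and under 3500 genes and under 15% mitochondrial UMIs were kept, the study's limits read as genes detected. Hashtags were called per antibody by Otsu's threshold on log counts, and barcodes with several (2474, 1875 and 3778 in control, Ang II and B6.SLE123) were removed as doublets, while doublets within 1 hashtag could not be seen. The libraries held 44146350, 59043555 and 63516694 gene UMIs. A cell took the class with the highest share of its markers detected, with at least 2 of 6 for B cells and 3 for others, and ties were left out; this rule was set after the files were seen. Counts were summed per class with Python 3.11 and scipy; the functions were tested on simulated data. Named genes were all 6 members, pathway genes past 2-fold, and the 5 most similar profiles per member. The members and lists were chosen with earlier results of these data known. Alternatives changed cell limits, doublets, gates, scaling, weighting, status calls and included cells. 2-HOBA was not analysed here. Some marker genes are not reported here.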

Additional observations from a re-analysis of the deposited data

Results flagged for a closer look

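Of 57 sets of 6 hashtag populations looked at, 6 held a population whose gap to its nearest neighbour was large against the range of the set by Dixon's criterion, which chance passes in about 1 in 20 sets. In control B cell-like cells, S1pr1 in population C0304 was at 191.9 CPM beside 133 to 151 CPM in the other 5. In control follicular-like cells, S1pr4 in C0305 was at 63.47 CPM beside 79.4 to 85.2 CPM. In B6.SLE123 B cell-like cells, Gpr183 in C0305 was at 95.4 CPM beside 75.3 to 79.0 CPM. In Ang II NK cell-like cells, Klf2 in C0306 was at 1420 CPM beside 1131 to 1206 CPM. The germinal centre B cell-like share of B lineage-like cells in control was 1.256% in C0302 and 0.0447% to 0.451% in the others.

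In B6.SLE123 marginal zone-like cells, S1pr3 in C0303 was at 19.21 CPM beside 45.7 to 52.0 CPM in the others. The marginal zone check genes summed to 1934 CPM in that population and to 2881 to 3173 CPM in the others, and the follicular check genes to 1363 CPM beside 765 to 1025 CPM. Without it the B6.SLE123 ratio of S1pr3 between marginal zone-like and follicular-like cells was 3.10.

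Gpr183 in B lineage-like cells, germinal centre class included, moved in opposite directions: every Ang II population was above, and every B6.SLE123 population below, every control population. The log2 ratios to control were 0.4913 in Ang II and -0.5953 in B6.SLE123. Both use the same control library, and the difference between them was not tested. The share of all genes with such a pattern was not counted in B lineage-like cells.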

How the results depend on the processing

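Values are log2 ratios. Of the alternatives, requiring 1 marker more in each gate moved no value outside the exact counting interval of its main result. That interval covers counting error only and not the spread of the hashtag populations. Against control cells with a Xist UMI, B6.SLE123 gave -0.49 for S1pr1, 4.29 for S1pr2, -0.27 for Gpr183 and 0.58 for Klf2, and turned direction for S1pr3 (-0.59) and S1pr4 (0.055). Ang II against the same cells gave 2.78 for S1pr2, -0.78 for S1pr3, 0.27 for S1pr4, 0.67 for Gpr183 and 0.65 for Klf2, and turned direction for S1pr1 (-0.15). Only control cells were chosen by Xist in these ratios, and the cause was not tested. Both S1pr2 ratios rest on fewer than the 12 S1pr2 UMIs of all control B cell-like cells and are imprecise. In follicular-like cells only, B6.SLE123 gave -0.16 (S1pr1), 1.32 (S1pr2), 1.12 (S1pr3) and -0.17 (Gpr183), and Ang II 0.20 (S1pr1), 0.43 (Gpr183) and 0.35 (Klf2). The S1pr2 value there came from 5 UMIs in B6.SLE123 and 4 in control (-0.89 to 3.66). With the study's limits read as UMIs, B6.SLE123 gave -0.16 for S1pr1, and Ang II -0.99 for S1pr3, 0.14 for S1pr4, 0.56 for Gpr183 and 0.47 for Klf2. Marginal zone-like against follicular-like cells then gave -1.06 (S1pr4), -0.53 (Gpr183) and -0.95 (Klf2) in control, 0.65 (S1pr1), 3.995 (S1pr3), -0.28 (S1pr4), -0.29 (Gpr183) and -0.50 (Klf2) in Ang II, and -0.72 (S1pr4), -0.64 (Gpr183) and -0.82 (Klf2) in B6.SLE123. With germinal centre B cell-like cells included, an alternative chosen after seeing the data, B6.SLE123 gave -0.39 (S1pr1), -0.30 (S1pr4), -0.60 (Gpr183) and 0.084 (Klf2) against control, and 0.58 (S1pr1) and -1.07 (Klf2) between its marginal zone-like and follicular-like cells.

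Other values moved between marginal zone-like and follicular-like cells. Status called on thinned cells gave 3.69 (S1pr3) and -1.06 (Klf2) in control, 3.45 (S1pr3), -0.75 (S1pr4) and -0.43 (Gpr183) in Ang II and -0.78 (Klf2) in B6.SLE123. Cd1d1 alone gave 3.63 (S1pr3) in control, 1.07 (S1pr1) and 3.79 (S1pr3) in Ang II and -0.99 (Klf2) in B6.SLE123, and Dtx1 alone gave -1.48 and -1.498 (Klf2) in control and Ang II. A mean of per-cell CPM gave -1.08 (S1pr4) and -0.99 (Klf2) in control and 0.80 (S1pr1) and -0.98 (Klf2) in Ang II. For Klf2, keeping barcodes with several hashtags gave -1.18, -1.13 and -0.78 in control, Ang II and B6.SLE123, totals without immunoglobulin, mitochondrial and ribosomal protein genes -1.16, -1.15 and -0.83, TMM factors -1.17 in Ang II, and the mean of hashtag populations -1.12 in control. Against control, Klf2 was 0.28 (TMM) and 0.28 (per-cell mean) in B6.SLE123, and 0.26 (reduced totals), 0.25 (TMM), 0.27 (per-cell mean) and 0.25 (hashtag mean) in Ang II.

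Leaving out each hashtag population in turn, B6.SLE123 against control ran from -0.29 to -0.16 for S1pr1 and 0.17 to 0.28 for Klf2. Ang II ran from 0.035 to 0.18 for S1pr1, 0.43 to 0.55 for Gpr183 and 0.24 to 0.35 for Klf2, and marginal zone-like against follicular-like Klf2 from -1.38 to -1.14 in control, -1.28 to -1.13 in Ang II and -1.06 to -0.82 in B6.SLE123. No paired analysis was possible because each group had 1 library and hashtag numbers are not tied to mice or conditions across libraries. S1pr2 outside the germinal centre class, with 12 UMIs in control, and all classes with few cells are limited by depth.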

Other observations

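A few further values stood clear of counting error while their hashtag populations overlapped those of control. S1pr4 in neutrophil-like cells was at 32.3 CPM in control and 62.2 CPM in B6.SLE123, from 33 and 75 UMIs, with a log2 ratio of 0.94 (0.34 to 1.58). S1pr1 in NK cell-like cells, where it supports exit from tissue, was at 45.4 CPM in control and 67.0 CPM in Ang II (0.56, 0.04 to 1.10). Klf2 in cDC2-like cells was at 62.8 CPM in control and 140.5 CPM in B6.SLE123, from 11 and 28 UMIs (1.16, 0.11 to 2.32). Klf2 in germinal centre B cell-like cells was at 41.2 CPM in control and 90.3 CPM in Ang II, from 15 and 53 UMIs (1.13, 0.28 to 2.07), but 35 of the 53 were in 24 cells of population C0305, and without it the Ang II level was 41.0 CPM. These were chosen after their values were seen.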
